A study of Bos taurus with 37 samples.

Results

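The genes that write, copy and erase DNA methylation, together with DPPA3, were followed in single bovine blastocysts. Their rows were chosen by gene symbol alone. Of 8 symbols asked for (DNMT1, DNMT3A, DNMT3B, UHRF1, TET1, TET2, TET3 and DPPA3), 6 were found, in 7 of the 22628 rows of the expression table, since TET3 stands in 2 rows. DNMT3B and TET1 had no row here and were not analysed. All 7 rows passed the filter on low values in every comparison.

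The study set 6 female and 6 male SCNT-BLs and 5 female and 6 male sham NT-BLs against 6 female and 6 male IVF-BLs, each blastocyst a separate embryo and 1 replicate. SCNT-BLs (somatic cell nuclear transfer) grew from oocytes whose own nucleus had been replaced by that of an ear skin fibroblast of an adult. These oocytes were activated too, after fusion with the fibroblast, by agents that the paper does not name. The SCNT-BLs formed 6 to 8 days after transfer, and only embryos of high quality with 60 to 80 blastomeres were chosen. Sham NT-BLs went through the manipulation and the chemical activation (ionomycin, then DMAP) after fertilization, losing a polar body and some ooplasm but keeping their own genome. IVF-BLs grew from in vitro-fertilized oocytes without manipulation, and the female and the male donor fibroblasts gave 1 library each. How many animals the fibroblasts came from is not given in the sources used here.

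DNA methylation at CpG sites is set by DNMT3A and copied onto the new strand after replication by DNMT1, which UHRF1 brings to half-methylated sites. TET enzymes oxidize methylcytosine, after which it is lost through replication or base excision repair. In the mouse, DPPA3 (also called STELLA) is stored in the oocyte, shields the maternal genome of the zygote from TET3 and restrains UHRF1. Mammalian embryos lose much of their methylation by the blastocyst stage, and the nucleus of a fibroblast brings a somatic pattern that has to be reset after nuclear transfer.

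RNA of whole blastocysts was amplified and sequenced, so fewer cells of a type and less RNA per cell cannot be told apart. Values are FPKM, fragment counts scaled to transcript length and to the mapped fragments of a library. Read depth is not in the table, and only relative depth could be estimated, from the steps between low values (0.371 to 1.44 over the libraries). Its group medians were 0.94 in female and 0.873 in male SCNT-BLs, 0.674 in female and 0.635 in male sham NT-BLs, and 1.10 in female and 0.927 in male IVF-BLs, and the part of this lower depth of sham NT-BLs in the results was not tested. Female SCNT-BL replicates 5 and 6 stood apart, with more rows listed at 0 than any other library (10310 and 10225) and relative depths of 0.371 and 0.511. Male and female libraries were sequenced on separate flow cells, so sex and flow cell cannot be told apart and groups were compared within a sex. Trophectoderm markers, with 13 of 14 over 1 FPKM on average in each blastocyst group, matched the labelled stage. The 12 fibroblast markers summed to 2.73 to 36.6 FPKM in blastocysts, against 9404 FPKM in female and 14045 FPKM in male donor cells.

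Fold changes below are differences of log2(FPKM + 1), a scale that understates the change of low genes. They come with their standard error (SE) and with p-values from limma, adjusted over all rows tested, and a row was called below 0.05. In sham NT-BLs against IVF-BLs, 2 of 7 member rows were called in females, where 13.5% of all 15259 rows tested were, and 2 of 7 in males, where 12.1% of 14902 were. In SCNT-BLs against sham NT-BLs, 1 of 7 was called in females (11.3% of 15116 rows) and 2 of 7 in males (11.8% of 14783 rows). In SCNT-BLs against IVF-BLs, limma called 0 of 7 in females (0.321% of 15256 rows, or 49 rows, and 1 to 57 rows on leaving out 1 embryo, the fewest without female SCNT-BL replicate 3) and 0 of 7 in males (6.98% of 14906 rows). At an unadjusted p under 0.05 those last counts were 3 in females, beside 10.9% of all rows, and 1 in males, beside 20.7%. Every pair of these comparisons within a sex shares a group of embryos, so they are not independent of each other.

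The median log2 fold change of the 7 rows was 0.78 in female and 0.38 in male sham NT-BLs against IVF-BLs, where all rows had medians of -0.09 and -0.02. It was 0.10 in females and -0.59 in males for SCNT-BLs against sham NT-BLs (all rows 0.04 and 0.01). For SCNT-BLs against IVF-BLs it was 0.08 in females and -0.11 in males (all rows -0.04 and -0.01). Over all rows, sham NT-BLs had 1073 higher and 988 lower calls in females and 913 higher and 888 lower in males. With libraries centred on their medians, these splits became 1293 and 676, and 1130 and 719.

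**Figure D1:**
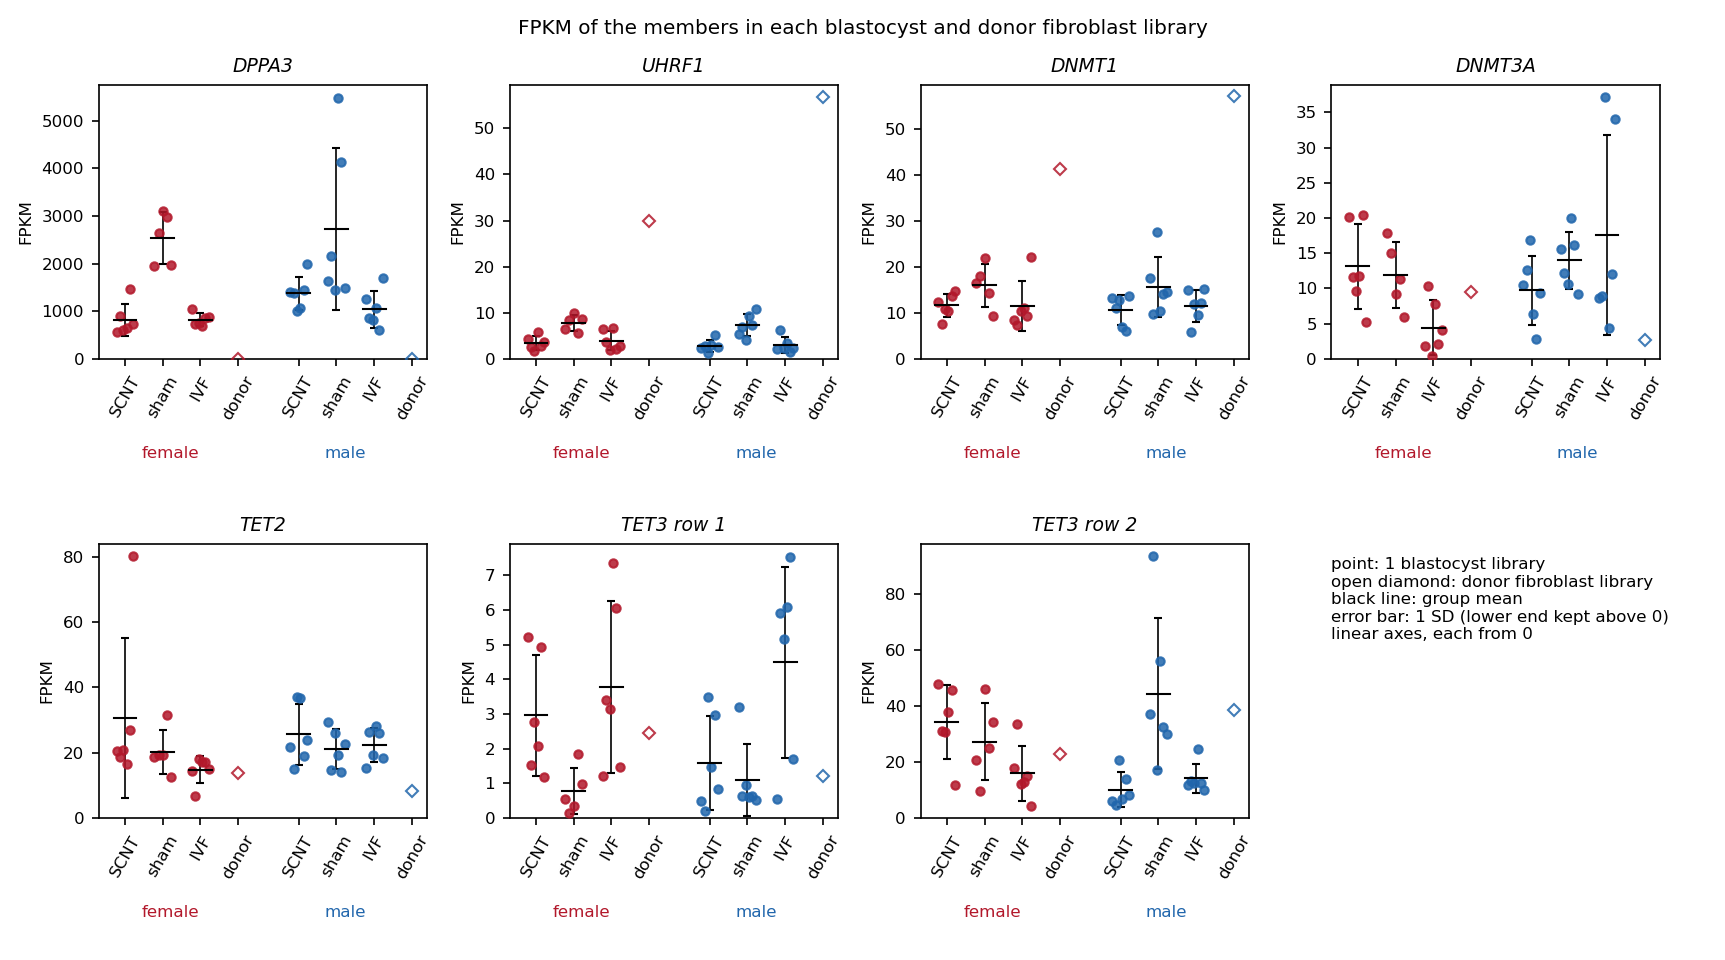
FPKM of each member row (vertical axis, linear, from 0) in each library, by sex and origin. Points are single blastocysts, black lines group means, bars 1 SD and open diamonds the donor fibroblasts. DPPA3 lay at 1454 FPKM or more in all sham NT-BLs, and UHRF1 and DNMT1 were highest in the donor cells.

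DPPA3 was the most abundant member, and manipulated but fertilized embryos held the most of it. It was 3.08 times as high in female and 2.60 times as high in male sham NT-BLs as in IVF-BLs of the same sex, whereas no difference was called between SCNT-BLs and IVF-BLs. Female SCNT-BLs had 570 FPKM at the lowest, a median of 684 and 1460 at the highest. The 5 female sham NT-BLs had 1949, 1976, 2645, 2984 and 3110 FPKM, against 683, 798 and 1051 in female IVF-BLs (lowest, median, highest). All 5 female sham NT-BLs thus lay above every female embryo of the other origins.

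In females the log2 fold change of DPPA3 in sham NT-BLs against IVF-BLs was 1.61 (SE 0.24, 95% interval 1.09 to 2.13, adjusted p = 5.2e-04 from limma, n = 5 and 6 embryos). In female SCNT-BLs against sham NT-BLs DPPA3 fell by 1.68 on that scale (SE 0.31, 95% interval -2.34 to -1.03, adjusted p = 0.00271, n = 6 and 5). It was the only member row whose ranges did not overlap in these contrasts, where 9.02% and 8.48% of all rows did not. In the other 4 contrasts the ranges of all member rows overlapped (apart for 1.38% of rows in female and 4.27% in male SCNT-BLs against IVF-BLs, 6.62% in male sham NT-BLs against IVF-BLs and 6.39% in male SCNT-BLs against sham NT-BLs). Both calls held without any 1 embryo, and the second also without female SCNT-BL replicates 5 and 6 (-1.89, adjusted p = 5.7e-04). Replicate 5 was the female SCNT-BL with 1460 FPKM, the others reaching at most 904 FPKM. Against female IVF-BLs, female SCNT-BLs differed by -0.08 (95% interval -0.63 to 0.48, adjusted p = 0.928).

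In males DPPA3 ranged more widely. Male SCNT-BLs had 1007 FPKM at the lowest, a median of 1395 and 1986 at the highest. Male sham NT-BLs had 1454, 1890 and 5490 FPKM, and male IVF-BLs 598, 964 and 1694. Replicates 4 and 5 of the male sham NT-BLs, at 5490 and 4146 FPKM, stood above the other 4, and 3 of the 6 exceeded every male IVF-BL. DPPA3 was called higher in male sham NT-BLs than in male IVF-BLs (1.25, SE 0.36, 95% interval 0.48 to 2.02, adjusted p = 0.0331, n = 6 each). Leaving out any single embryo among replicates 2, 3, 4 and 5 of the male IVF-BLs and 4 and 5 of the male sham NT-BLs ended that call (adjusted p at most 0.0791). It was also lost without the filter on low values (adjusted p = 0.0788). Male SCNT-BLs differed from male sham NT-BLs by -0.81 (95% interval -1.55 to -0.07, adjusted p = 0.159) and from male IVF-BLs by 0.45 (95% interval -0.07 to 0.96, adjusted p = 0.316).

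Among all rows of a library, DPPA3 ranked between 9th and 90th by FPKM in every blastocyst. Its median rank was 64 in female and 34 in male SCNT-BLs, 17 in female and 31 in male sham NT-BLs, and 64 in female and 60 in male IVF-BLs. The donor fibroblasts had 2.59 FPKM (female) and 2.15 FPKM (male), so the mean of SCNT-BLs was 316 times the donor level in females and 643 times in males, with no error on the donor side. By group means the order was male sham NT-BLs, female sham NT-BLs, male SCNT-BLs, male IVF-BLs, female IVF-BLs and female SCNT-BLs. Of neighbours in that order, only female sham NT-BLs and male SCNT-BLs were more than 1 SD apart, by the larger of their SDs.

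UHRF1, the reader of half-methylated DNA, was low in blastocysts, with its highest group means in the sham NT-BLs. Female SCNT-BLs had 1.73 FPKM at the lowest, a median of 3.29 and 5.83 at the highest. The female sham NT-BLs had 5.66, 6.54, 8.39, 8.60 and 9.93 FPKM, against 2.00, 3.31 and 6.64 in female IVF-BLs (lowest, median, highest). In males, SCNT-BLs had 1.30, 2.69 and 5.12 FPKM, sham NT-BLs 4.11, 7.16 and 10.9, and IVF-BLs 1.55, 2.42 and 6.20. These values overlapped between origins but were highest in sham NT-BLs. Of the SCNT-BLs, 5 of 6 in each sex lay below every sham NT-BL of that sex.

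UHRF1 fell by 1.12 on the log2 scale in male SCNT-BLs against male sham NT-BLs (SE 0.33, 95% interval -1.82 to -0.42, adjusted p = 0.0359 from limma, n = 6 each). The call survived leaving out male SCNT-BL replicate 5 or male sham NT-BL replicates 1 or 3, and leaving out any of the other 9 embryos ended it (adjusted p at most 0.0827). In females the same difference was -1.02 (SE 0.34, adjusted p = 0.0652). Sham NT-BLs against IVF-BLs gave 0.91 in females (SE 0.35, adjusted p = 0.097) and 1.08 in males (SE 0.35, adjusted p = 0.0528), neither called. SCNT-BLs differed from IVF-BLs by -0.11 in females (95% interval -0.87 to 0.65) and by -0.05 in males (95% interval -0.78 to 0.68).

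Averaged over the sexes, a comparison chosen after the values were seen, UHRF1 was 0.99 higher on the log2 scale in sham NT-BLs than in IVF-BLs (SE 0.23, adjusted p = 0.00206 from limma). It was 1.07 lower in SCNT-BLs than in sham NT-BLs (-1.07, SE 0.22, adjusted p = 7.3e-04). These mean comparisons called 4 and 3 of the 7 member rows, where 24.0% of 15375 and 21.0% of 15207 rows were called, and both UHRF1 calls held without any 1 embryo. DPPA3 gave 1.43 (adjusted p = 2.6e-05) and -1.24 (adjusted p = 2.9e-04) in the same fits. The mean comparison of SCNT-BLs with IVF-BLs called 0 of the 7 rows with limma (4.25% of 15425 rows), and the lowest unadjusted p was 0.037, for TET2.

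DNMT1, the maintenance methyltransferase, was called in no comparison, and its group means lay between 10.6 and 16.0 FPKM. Female SCNT-BLs had 7.66 FPKM at the lowest, a median of 11.7 and 14.7 at the highest. The female sham NT-BLs had 9.33, 14.3, 16.5, 18.0 and 22.1 FPKM, against 7.48, 9.90 and 22.3 in female IVF-BLs (lowest, median, highest). Male SCNT-BLs had 6.03, 11.9 and 13.6 FPKM, male sham NT-BLs 9.70, 14.4 and 27.6, and male IVF-BLs 5.80, 11.98 and 15.2. The ranges of all origins overlapped within each sex. The largest difference was -0.50 in male SCNT-BLs against male sham NT-BLs (95% interval -1.13 to 0.14, adjusted p = 0.331 from limma). SCNT-BLs differed from IVF-BLs by 0.08 in females (95% interval -0.51 to 0.67) and in males by -0.11 (95% interval -0.71 to 0.48).

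The maintenance pair set donor fibroblasts apart from every embryo. DNMT1 stood at 41.5 FPKM (female) and 57.2 FPKM (male) in donor cells, above all 35 blastocysts, whose highest value was 27.6 FPKM. UHRF1 stood at 29.9 FPKM (female) and 56.7 FPKM (male) in donor cells, where no blastocyst exceeded 10.9 FPKM. In SCNT-BLs, 6 of 6 embryos of each sex lay below their donor cells for both genes. The donor level was 8.58 times the SCNT-BL mean of UHRF1 in females and 19.98 times in males, and for DNMT1 3.56 and 5.38 times. With 1 donor library per sex these ratios have no error and no test.

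DNMT3A, the de novo methyltransferase, varied widely from embryo to embryo, most of all in IVF-BLs. Female SCNT-BLs had 5.17 FPKM at the lowest, a median of 11.7 and 20.5 at the highest, a coefficient of variation of 46.1%. The female sham NT-BLs had 5.99, 9.15, 11.3, 15.04 and 17.8 FPKM (39.5%), against 0.357, 3.12 and 10.4 FPKM (87.8%) in female IVF-BLs (lowest, median, highest). In males, SCNT-BLs had 2.81, 9.92 and 16.9 FPKM (50.0%), sham NT-BLs 9.26, 13.9 and 20.1 FPKM (28.8%) and IVF-BLs 4.38, 10.5 and 37.1 FPKM (81.0%). Replicates 3 and 6 of the male IVF-BLs, at 37.1 and 34.1 FPKM, were above every other blastocyst, whereas female IVF-BL replicate 3 was the lowest of all.

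No comparison called DNMT3A. Its log2 fold change against female IVF-BLs was 1.60 in female SCNT-BLs (SE 0.49, 95% interval 0.57 to 2.63, adjusted p = 0.202 from limma). In female sham NT-BLs it was 1.51 (SE 0.50, 95% interval 0.44 to 2.57, adjusted p = 0.0587). That second difference passed with all 6 groups in 1 fit (adjusted p = 0.0277), with only rows over 1 FPKM tested (adjusted p = 0.0402), with median centring (adjusted p = 0.0424), and on leaving out replicate 2 or 4 of the female IVF-BLs or replicate 5 of the female sham NT-BLs (adjusted p as low as 0.0253). The male differences were -0.58 for SCNT-BLs (95% interval -1.59 to 0.43) and 0.01 for sham NT-BLs (95% interval -0.90 to 0.92). The difference between the sexes in the effect of SCNT was 2.18 (SE 0.72, adjusted p = 0.119), where 1.91% of all rows were called and 0 of 7 member rows. For the effect of sham NT it was 1.50 (adjusted p = 0.376), where 1.22% of rows and again 0 of 7 members were called. Unadjusted p fell under 0.05 for 2 of 7 member rows in the SCNT test, beside 15.2% of all rows. In the sham NT test it did so for 1 of 7, beside 12.2%. In donor cells DNMT3A stood at 9.54 FPKM (female) and 2.73 FPKM (male), and all 6 male SCNT-BLs exceeded their donor cells.

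**Figure D2:**
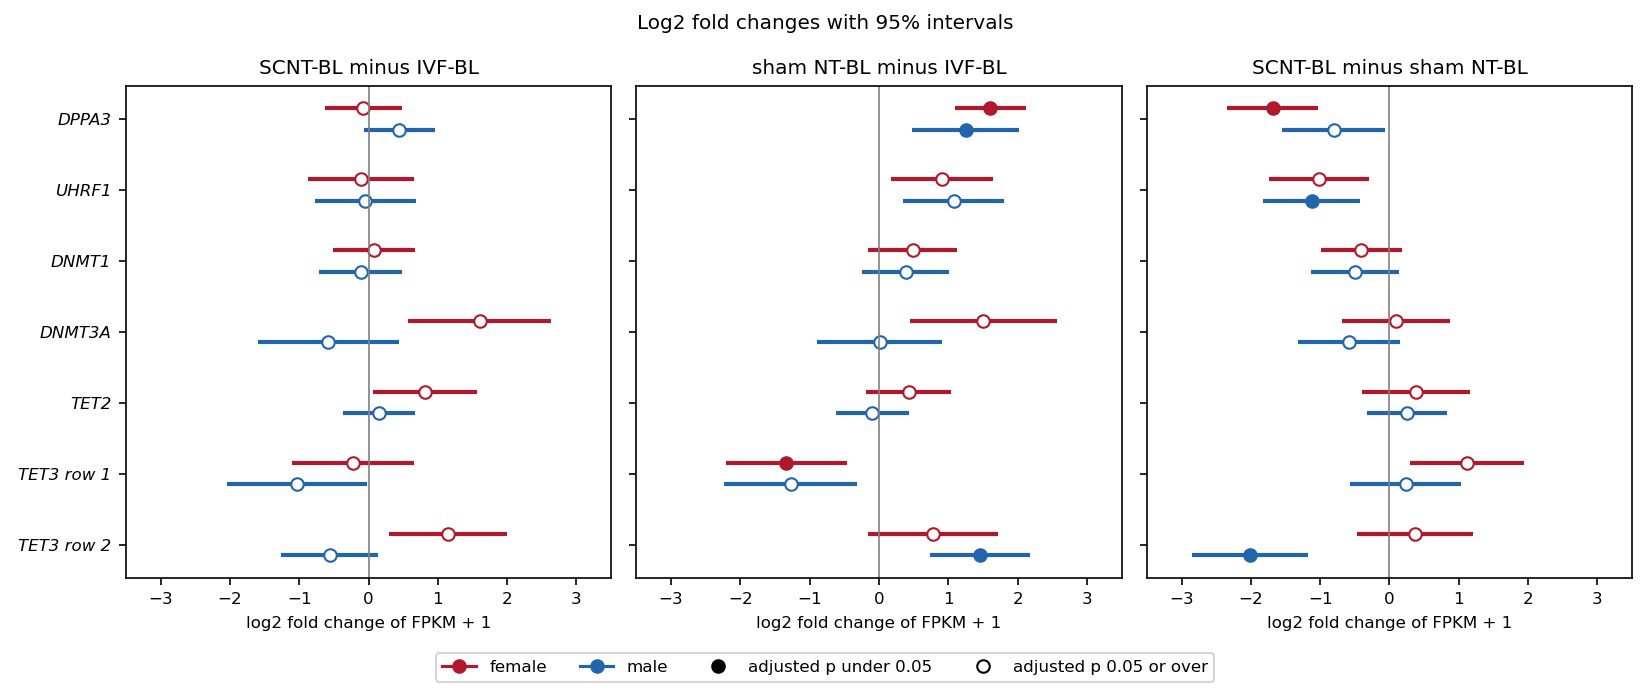
Log2 fold changes of the member rows on the FPKM + 1 scale (horizontal axis), with 95% intervals, for the 3 contrasts of origin within females (red) and males (blue); filled points have an adjusted p under 0.05 in limma. DPPA3 lies at 1.61 and 1.25 in sham NT-BLs against IVF-BLs, and TET3 row 2 at -2.01 in male SCNT-BLs against sham NT-BLs.

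TET2, which oxidizes methylcytosine, was called in no comparison. Female SCNT-BLs had 16.4 FPKM at the lowest, a median of 20.6 and 80.2 at the highest. The female sham NT-BLs had 12.7, 18.6, 19.2, 19.2 and 31.5 FPKM, against 6.80, 16.2 and 18.1 in female IVF-BLs (lowest, median, highest). Male SCNT-BLs had 15.02, 22.9 and 37.2 FPKM, male sham NT-BLs 14.2, 21.0 and 29.2, and male IVF-BLs 15.4, 22.6 and 28.1. The 80.2 FPKM belong to female SCNT-BL replicate 6, 1 of the libraries with the most rows at 0, and the other 5 reached at most 26.9 FPKM. In females SCNT-BLs differed from IVF-BLs by 0.81 (SE 0.35, adjusted p = 0.405 from limma), 0.49 without that embryo and 0.40 without replicates 5 and 6. All 6 SCNT-BLs of each sex exceeded their donor cells, which had 13.9 FPKM (female) and 8.36 FPKM (male).

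TET3, the oxidase that acts on the paternal genome of the mouse zygote, has 1 gene entry in RefSeq but 2 rows in the table. They are called row 1 and row 2 here by their order in it. What sets them apart is not given in the sources used here, and reads may have been divided between them. Row 2 exceeded row 1 in 35 of 35 blastocysts and in both donor libraries, with a median ratio of 11.1 over blastocysts (1.64 to 145). Its median share of their sum was 91.3% in female and 88.2% in male SCNT-BLs, 97.4% in female and 98.2% in male sham NT-BLs, and 76.8% in female and 75.5% in male IVF-BLs, the lowest.

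**Figure D3:**
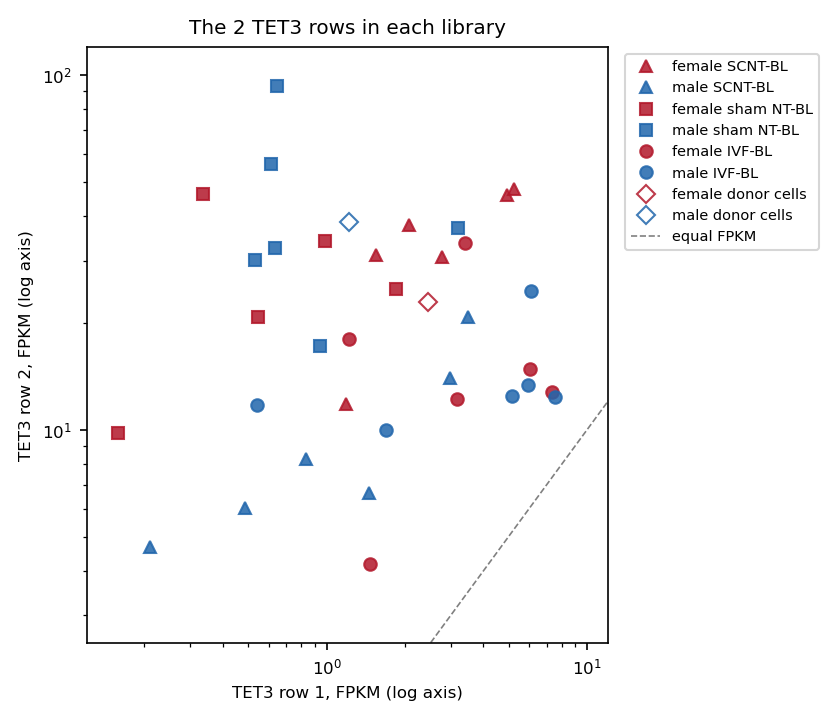
FPKM of TET3 row 2 (vertical, log axis) against TET3 row 1 (horizontal, log axis) in each library, with shape for origin, colour for sex and a dashed line where both are equal. All 35 blastocysts lie above the line, and sham NT-BLs (squares) sit to the left of most IVF-BLs (circles).

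TET3 row 2, the abundant row, was lowest in male SCNT-BLs. Male SCNT-BLs had 4.68 FPKM at the lowest, a median of 7.45 and 20.8 at the highest, against 17.2, 34.8 and 93.3 in male sham NT-BLs and 9.98, 12.4 and 24.7 in male IVF-BLs. Of the male SCNT-BLs, 5 of 6 lay below every male sham NT-BL, and 4 of 6 below every male IVF-BL. Female SCNT-BLs had 11.9, 34.4 and 47.8 FPKM (lowest, median, highest). The female sham NT-BLs had 9.77, 20.9, 24.9, 34.1 and 46.2 FPKM, and female IVF-BLs 4.18, 13.8 and 33.6. All but the lowest of the female sham NT-BLs lay within the range of the female SCNT-BLs.

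Row 2 fell by 2.01 on the log2 scale in male SCNT-BLs against male sham NT-BLs (SE 0.39, 95% interval -2.84 to -1.17, adjusted p = 0.00325 from limma, n = 6 each). It was 1.45 higher in male sham NT-BLs than in male IVF-BLs (SE 0.34, 95% interval 0.73 to 2.17, adjusted p = 0.00987). Both calls held without any 1 embryo and with the 2 TET3 rows summed (-1.89, adjusted p = 0.00552, and 1.13, adjusted p = 0.0403). In females, SCNT-BLs differed from sham NT-BLs by 0.37 (95% interval -0.47 to 1.20, adjusted p = 0.592) and from IVF-BLs by 1.15 (95% interval 0.29 to 2.00, adjusted p = 0.282). Female sham NT-BLs differed from female IVF-BLs by 0.78 (95% interval -0.15 to 1.72, adjusted p = 0.279).

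The log2 fold change of row 2 in SCNT-BLs against sham NT-BLs, 0.37 in females and -2.01 in males, itself differed between the sexes (female minus male 2.37, SE 0.59, 95% interval 1.16 to 3.59, adjusted p = 0.0318 from limma). This test was added after the values were seen, and it called 1 of 7 member rows, where 2.17% of 15207 rows were called. Leaving out any single one of 9 of the 23 embryos ended the call (adjusted p at most 0.0715). These were male SCNT-BL replicates 1, 2, 4 and 6, male sham NT-BL replicate 4, female SCNT-BL replicates 4 and 5 and female sham NT-BL replicates 2 and 4. The matching difference between the sexes for SCNT-BLs against IVF-BLs was 1.70 (SE 0.54, adjusted p = 0.106), and 1 embryo decided it, since without female SCNT-BL replicate 6 the adjusted p was 0.0444. Averaged over the sexes, row 2 was 1.12 higher in sham NT-BLs than in IVF-BLs (adjusted p = 0.00572). Its mean difference of SCNT-BLs from sham NT-BLs was -0.82 (adjusted p = 0.0473), a call lost with the rows summed (-0.72, adjusted p = 0.0866) and on leaving out any of 16 of the 23 embryos.

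TET3 row 1 moved the other way in sham NT-BLs. The female sham NT-BLs had 0.158, 0.337, 0.548, 0.988 and 1.84 FPKM, and 4 of the 5 lay below every female IVF-BL (1.22 at the lowest, a median of 3.28 and 7.37 at the highest). Row 1 was lower in them by limma (log2 fold change -1.34, SE 0.41, 95% interval -2.21 to -0.46, adjusted p = 0.0427). The call survived leaving out replicate 1 or 6 of the female IVF-BLs or replicate 4 of the female sham NT-BLs, and leaving out any of the other 8 embryos ended it (adjusted p at most 0.104). It was also lost without the filter on low values (adjusted p = 0.0742) and with median centring (-1.21, adjusted p = 0.0727).

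In males row 1 had 0.210, 1.15 and 3.48 FPKM in SCNT-BLs, 0.532, 0.640 and 3.20 in sham NT-BLs and 0.539, 5.55 and 7.54 in IVF-BLs (lowest, median, highest). The male sham NT-BLs differed from IVF-BLs by -1.27 (95% interval -2.23 to -0.31, adjusted p = 0.0817 from limma), which passed without male IVF-BL replicate 1 or male sham NT-BL replicate 1 (down to adjusted p = 0.0209). Averaged over the sexes the difference was -1.30 (SE 0.31, adjusted p = 0.00253). Male SCNT-BLs differed from male IVF-BLs by -1.03 (95% interval -2.05 to -0.02, adjusted p = 0.23). Female SCNT-BLs had 1.19, 2.43 and 5.23 FPKM, and differed from female sham NT-BLs by 1.12 (adjusted p = 0.0764) and from female IVF-BLs by -0.22 (adjusted p = 0.864). In the donor cells row 1 stood at 2.46 FPKM (female) and 1.22 FPKM (male). Row 2 stood at 23.0 FPKM (female) and 38.4 FPKM (male). The male value was above all 6 male SCNT-BLs and all 6 male IVF-BLs, whereas 5 of 6 female SCNT-BLs exceeded the female value.

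The sham NT-BLs also differed in genes that work beside UHRF1 and DNMT1 at the replication fork. LIG1, the ligase that joins Okazaki fragments and binds UHRF1, had 166 ± 55.4 FPKM in female sham NT-BLs and 42.2 ± 16.8 FPKM in female IVF-BLs (SD, log2 fold change 1.94, adjusted p = 7.0e-04 from limma). In males LIG1 had 191 ± 81.0 FPKM in sham NT-BLs and 55.3 ± 8.00 FPKM in IVF-BLs (1.67, adjusted p = 6.3e-04). PCNA, the sliding clamp of replication, moved the opposite way. It had 2.34 ± 1.25 FPKM in female sham NT-BLs and 9.44 ± 4.58 FPKM in female IVF-BLs (-1.62, adjusted p = 0.00785), and 2.96 ± 1.58 FPKM in male sham NT-BLs and 9.59 ± 4.03 FPKM in male IVF-BLs (-1.41, adjusted p = 0.0178). These 4 calls held without any 1 embryo. LIG1 and PCNA were the only called genes of 8 maintenance partners in either sex, beside 13.5% in females and 12.1% in males of all rows. The list had a median fold change of 0.06 in females and 0.09 in males.

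Against sham NT-BLs, SCNT-BLs showed both genes at the other end. LIG1 was lower in female SCNT-BLs (42.5 ± 10.5 FPKM, log2 fold change -1.89, adjusted p = 9.1e-04 from limma) and in male SCNT-BLs (85.2 ± 31.0 FPKM, -1.12, adjusted p = 0.0248). PCNA was higher in female SCNT-BLs (6.82 ± 1.76 FPKM, 1.27, adjusted p = 0.0269) and in male SCNT-BLs (12.3 ± 4.43 FPKM, 1.77, adjusted p = 0.0026). The male call of LIG1 was lost on leaving out replicate 3 or 5 of the male SCNT-BLs or 4 or 6 of the male sham NT-BLs (adjusted p at most 0.062). The female call of PCNA was lost on leaving out replicate 2 or 4 of the female SCNT-BLs or 2, 3 or 5 of the female sham NT-BLs (at most 0.0678). None of the 8 maintenance partners was called by limma between SCNT-BLs and IVF-BLs of either sex, beside 0.321% of all rows in females and 6.98% in males. Sham NT-BLs enter both contrasts, so the reversed signs are not independent.

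Of 19 genes of active demethylation and base excision, 18 were tested in females. In female sham NT-BLs against female IVF-BLs, 3 of these were higher and 2 lower, beside 13.5% of all rows called. TDG, the glycosylase that removes formylcytosine and carboxylcytosine made by TET enzymes, had 33.2 ± 8.62 FPKM in female sham NT-BLs and 12.3 ± 5.09 FPKM in female IVF-BLs (1.42, adjusted p = 0.00649 from limma). LIG3, a ligase of base excision repair, was also higher (1.05, adjusted p = 0.0244), as was IDH1, which makes the cofactor of TET enzymes (0.72, adjusted p = 0.0304). XRCC1, the scaffold that LIG3 binds, was lower (-1.10, adjusted p = 0.0395). In males 0 of 17 were higher and 2 lower, beside 12.1% of all rows called. The 2 were the glycosylases UNG (-1.27, adjusted p = 0.0358 from limma) and MBD4 (-0.92, adjusted p = 0.0468). The list medians were -0.02 in females and 0.03 in males.

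SCNT-BLs against sham NT-BLs had 2 higher and 2 lower of 18 in females, beside 11.3% of all rows called. In males 1 of 17 was called each way, beside 11.8% of all rows. TDG was lower in female SCNT-BLs (17.6 ± 4.90 FPKM, -0.87, adjusted p = 0.0374 from limma), as was IDH1 (-0.94, adjusted p = 0.0465). XRCC1 was higher (1.24, adjusted p = 0.0247). In males MBD4 was higher (28.0 ± 7.92 FPKM in SCNT-BLs and 11.001 ± 4.98 FPKM in sham NT-BLs, 1.34, adjusted p = 0.00749) and LIG3 lower (-0.97, adjusted p = 0.0296). Male SCNT-BLs against male IVF-BLs called 1 of 17, beside 6.98% of all rows. It was the stress-induced GADD45B, lower (-1.42, adjusted p = 0.0452 from limma).

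Of 11 readers of CpG methylation tested, 2 were called in male SCNT-BLs against IVF-BLs and 3 against sham NT-BLs, beside 6.98% and 11.8% of all rows. MBD2, which binds methylated DNA, had 9.11 ± 3.21 FPKM in male SCNT-BLs, 1.65 ± 0.765 FPKM in male sham NT-BLs and 3.39 ± 2.95 FPKM in male IVF-BLs. It was higher than in sham NT-BLs (1.93, adjusted p = 0.00101 from limma) and than in IVF-BLs (1.38, adjusted p = 0.0413). CXXC1, which binds unmethylated CpG, was lower, at 5.62 ± 2.23 FPKM in male SCNT-BLs, 18.6 ± 7.30 FPKM in male sham NT-BLs and 17.4 ± 6.73 FPKM in male IVF-BLs (-1.56, adjusted p = 0.00404, and -1.46, adjusted p = 0.0107). CXXC5 was also higher in male SCNT-BLs than in sham NT-BLs (0.93, adjusted p = 0.0451). In females MBD2 was higher in SCNT-BLs than in sham NT-BLs (1.25, adjusted p = 0.049). Of the 11 readers tested, 0 were called by limma in sham NT-BLs against IVF-BLs of either sex, beside 13.5% of all rows in females and 12.1% in males.

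**Figure D4:**
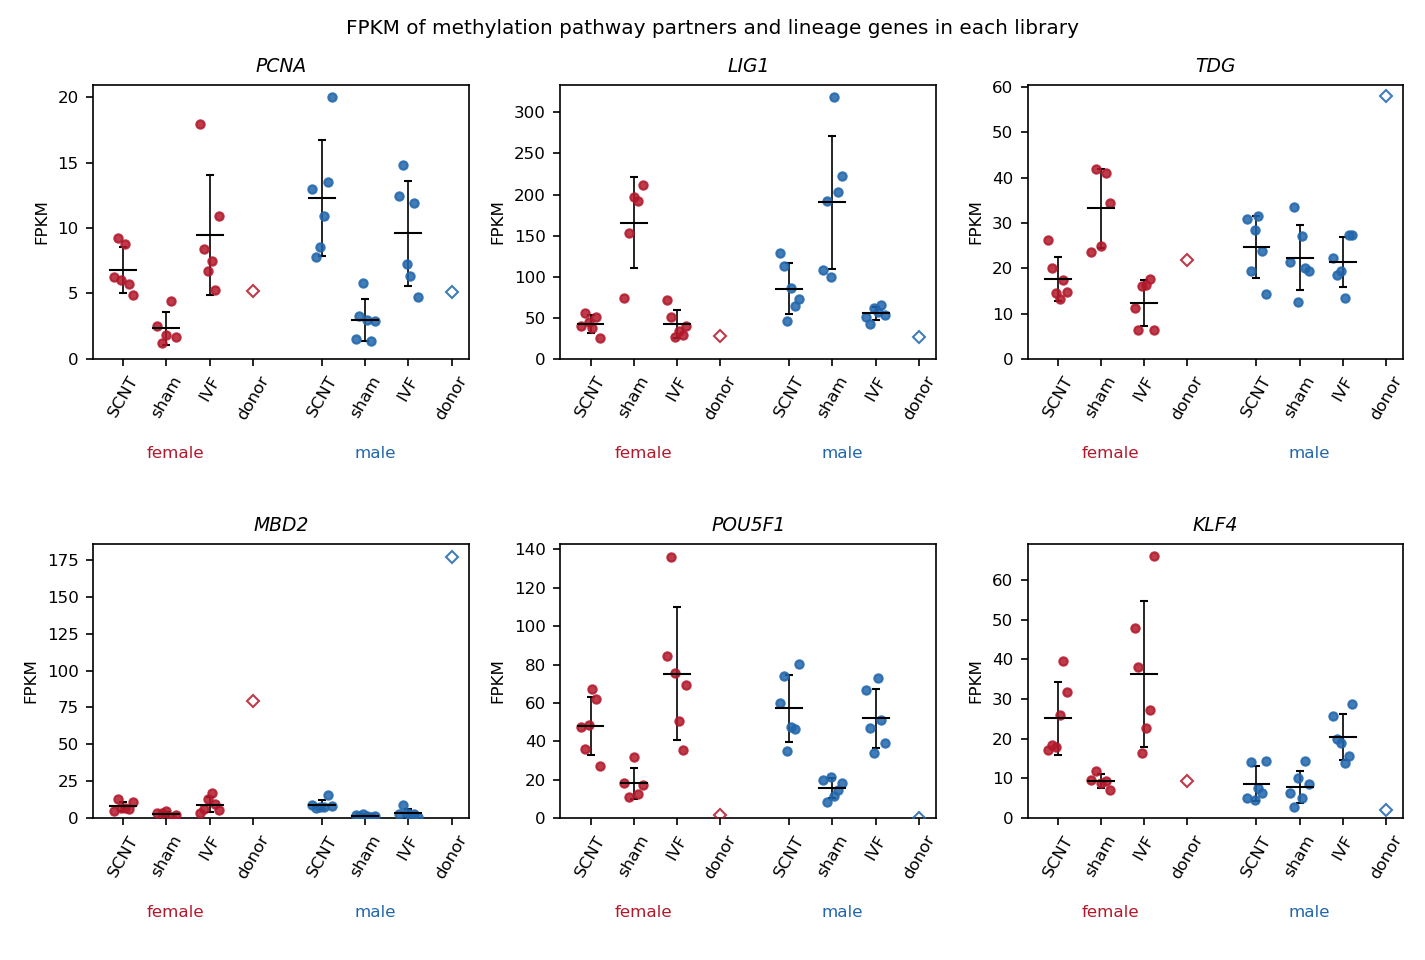
FPKM (vertical axes, linear, from 0) of PCNA, LIG1, TDG, MBD2, POU5F1 and KLF4 in each library by sex and origin. Points are single blastocysts, black lines means, bars 1 SD and open diamonds donor cells, with LIG1 at a mean of 166 and 191 FPKM in female and male sham NT-BLs against 42.2 and 55.3 FPKM in IVF-BLs.

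The methyl donor cycle and the imprint protection list moved in single genes. In female sham NT-BLs AHCYL2, which resembles an enzyme of the methionine cycle, was higher than in IVF-BLs (0.97, adjusted p = 0.0431 from limma). Of 16 methyl donor genes tested in males, 1 was called in sham NT-BLs against IVF-BLs, beside 12.1% of all rows. It was the folate enzyme MTHFD1, which was higher (0.86, adjusted p = 0.0276 from limma). Against sham NT-BLs, 1 of 16 was higher in female SCNT-BLs, where 11.3% of all rows were called. This was SHMT2 of mitochondrial folate metabolism (0.79, adjusted p = 0.024 from limma). In male SCNT-BLs MTHFD2 (-1.16, adjusted p = 0.0267) and MTHFD1 (-1.04, adjusted p = 0.0223) were lower than in sham NT-BLs.

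ARID4A, a chromatin protein tied to imprinting in the mouse, had 21.0 ± 5.62 FPKM in male SCNT-BLs, 7.25 ± 2.26 FPKM in male sham NT-BLs and 5.55 ± 1.86 FPKM in male IVF-BLs. It was higher than in either (1.42, adjusted p = 0.00198, and 1.76, adjusted p = 8.0e-04, from limma). TRIM28, the corepressor that holds imprints, was lower in male SCNT-BLs than in IVF-BLs (-0.92, adjusted p = 0.0486). Of the 5 de novo partners tested, 0 were called by limma in the 6 contrasts, where 0.321% to 13.5% of all rows were called. Of all these lists 0 genes were called in female SCNT-BLs against their IVF counterparts, beside 0.321% of all rows. Of 46 calls of named partner and lineage genes, 22 held without any 1 embryo, among them ARID4A, CXXC1, the male calls of MBD2 and MBD4 against sham NT-BLs, and TDG in female sham NT-BLs against IVF-BLs.

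Some markers of each blastocyst lineage were called in sham NT-BLs against IVF-BLs too, where 13.5% of all rows were called in females and 12.1% in males. Of 9 inner cell mass and epiblast markers tested, 1 was higher (LIN28A, 1.56, adjusted p = 0.00659 from limma) and 2 lower in female sham NT-BLs than in IVF-BLs, and 2 were lower in males. POU5F1, the pluripotency factor, had 18.1 ± 8.20 FPKM in female sham NT-BLs and 75.3 ± 34.7 FPKM in female IVF-BLs (-1.97, adjusted p = 0.00112 from limma), and 15.6 ± 5.15 FPKM in male sham NT-BLs and 51.9 ± 15.5 FPKM in male IVF-BLs (-1.69, adjusted p = 7.2e-04). KLF4 was lower in both sexes as well (-1.72, adjusted p = 0.00236, and -1.39, adjusted p = 0.0112). The 9 markers tested had a median of -0.13 in females and -0.58 in males, where all rows had -0.09 and -0.02. In females the list as a whole thus lay near all rows. The inner cell mass list summed to 105 to 135 FPKM in female and 74.5 to 188 FPKM in male sham NT-BLs, and to 136 to 353 FPKM in female and 145 to 209 FPKM in male IVF-BLs. FGF4 was listed at 0 in both sham NT groups and in male IVF-BLs. Of 14 trophectoderm markers, TEAD4 (-1.27, adjusted p = 0.0207) and IFNT2 (-3.13, adjusted p = 0.0022), 1 of several similar interferon tau genes that may share reads, were lower in female sham NT-BLs than in IVF-BLs, and TFAP2C (-1.11, adjusted p = 0.00583) in males, with list medians of -0.54 and -0.41. Of the primitive endoderm markers, GATA6 was lower in females (-0.95, adjusted p = 0.018, of 7 tested) and GATA4 in males (-1.22, adjusted p = 0.0158, of 8 tested). The median of that list was 0.65 in females and -0.20 in males (all rows -0.09 and -0.02), so in females GATA6 went against its list. In male SCNT-BLs against IVF-BLs, GATA3 (0.80) and GATA6 (0.85) were higher and TEAD4 (-1.04), GATA2 (-1.40) and KLF4 (-1.23) lower, with adjusted p of 0.0306, 0.00737, 0.0143, 0.0225 and 0.0212 in that order. The list medians there were -0.26 for 14 trophectoderm, -0.12 for 9 inner cell mass and -0.28 for 8 primitive endoderm markers. All rows had a median of -0.01, and 6.98% of them were called. GATA3 and GATA6 thus went against the medians of their lists. Against sham NT-BLs, POU5F1 was higher in female SCNT-BLs (48.2 ± 15.1 FPKM, 1.40, adjusted p = 0.00744) and in male SCNT-BLs (57.3 ± 17.4 FPKM, 1.82, adjusted p = 4.5e-04). In that contrast the inner cell mass list had a median of -0.13 in females and 0.24 in males. The part of these shifts in the differences of the member and partner genes was not tested.

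Oocyte markers, of interest because DPPA3 RNA is also stored in oocytes, stayed low in all origins. The 12 found summed to 1.68 to 11.7 and 0.323 to 13.1 FPKM in female and male SCNT-BLs, 1.18 to 5.84 and 2.70 to 17.9 FPKM in female and male sham NT-BLs, and 4.13 to 8.15 and 1.12 to 12.6 FPKM in female and male IVF-BLs. ZAR1 was listed at 0 in every library. Limma called 0 of 9 in females and 0 of 10 in males between sham NT-BLs and IVF-BLs, beside 13.5% and 12.1% of all rows. In female SCNT-BLs GDF9 was lower than in sham NT-BLs (means of 0.0185 and 1.07 FPKM, -0.97, adjusted p = 0.0121). The part of oocyte RNA in the DPPA3 levels was not tested beyond these values. The cumulus list summed to at most 33.3 FPKM in sham NT-BLs and 31.6 FPKM in IVF-BLs.

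Across the 35 blastocysts the members did not form 1 pattern. Between member rows, Pearson's r of log2(FPKM + 1) was highest for UHRF1 and DPPA3 (0.56) and lowest for TET3 row 1 and DPPA3 (-0.64). After subtraction of the 6 group means these were 0.14 and -0.36, and the 2 TET3 rows correlated at 0.06 before and 0.41 after it. Embryos share groups, flow cells and depth, so these values describe the libraries and carry no p. The closest of 11155 rows to DPPA3 were NFE2L1 (0.89, and 0.70 for deviations from group means), CYB5D2 (0.87 and 0.73) and VPS25 (0.87 and 0.68). Those closest to UHRF1 were DBF4B (0.80 and 0.47), TRAIP (0.78 and 0.59) and FKBP5 (0.74 and 0.31).

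TET2 was closest to SETD5 (0.87, and 0.85 for deviations), CDK12 (0.82 and 0.77) and ARID2 (0.76 and 0.71). TET3 row 2 was closest to UBR4 (0.78 and 0.53), SLC35B2 (0.73 and 0.42) and PDIA4 (0.72 and 0.52), and TET3 row 1 to MXD1 (0.72 and 0.59), ABHD2 (0.71 and 0.51) and PTPRF (0.70 and 0.49). DNMT1 was closest to HSPA8 (0.70 and 0.61), PUM2 (0.70 and 0.64) and BARD1 (0.69 and 0.69). DNMT3A had the weakest neighbours of the members, GTF2H4 (0.59 and 0.30), ENOPH1 (0.57 and 0.39) and COQ2 (0.55 and 0.62).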

How the data were processed

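Single blastocysts and donor fibroblasts were taken from 1 table of 22628 rows and 37 libraries, all of which were used. Poly-A RNA had been amplified by pico-profiling. The authors aligned reads to UMD3.1 with TopHat and deposited FPKM from Cufflinks, Trim Galore and Cuffdiff being further tools in the submitters' notes, all without versions. FPKM are not counts, so counting error cannot be had from them.

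Groups came from the sample labels. Within each comparison, rows averaging more than 0.1 FPKM entered a fit by limma 3.58.1 (lmFit, eBayes with trend, R 4.3.3) on log2(FPKM + 1), adjusted by Benjamini-Hochberg over all rows tested, within a sex, with 2 interactions of sex and origin. Figures used matplotlib 3.10.9. Alternatives were a pseudocount of 0.1, other filters, median centring, a replicate block, 1 fit of 6 groups, summed TET3 rows and leaving out embryos. Means over the sexes and the interaction for SCNT-BLs against sham NT-BLs were added after the data were seen.

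Relative depth is the most common ratio of a library's values under 1 FPKM to those of male IVF-BL replicate 1. All member rows were named. Of each partner list, at most the 2 called genes with the largest fold change per comparison and direction were named, and for each member row the 3 most correlated rows. IDH1 and MTHFD1 beyond that limit, and the lineage and oocyte markers were named after their values were seen. The members and lists were chosen with earlier results of these data known. Results of some called partner genes are not reported here. No sequences or positions are given.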

Additional observations from a re-analysis of the deposited data

Results flagged for a closer look

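In 5 of 42 sets of 5 or 6 embryos, 1 embryo lay far from the rest by Dixon's criterion, applied to FPKM without a log. Chance meets it in about 1 set in 20 where values are normally distributed, which FPKM need not be. DNMT1 was 22.3 FPKM in female IVF-BL replicate 6 and 7.48 to 11.1 FPKM in the other 5. TET2 was 80.2 FPKM in female SCNT-BL replicate 6 (16.4 to 26.9 FPKM in the others) and 6.80 FPKM in female IVF-BL replicate 2 (14.4 to 18.1 FPKM in the others). TET3 row 1 was 3.20 FPKM in male sham NT-BL replicate 1 (0.532 to 0.945 FPKM in the others), and TET3 row 2 was 24.7 FPKM in male IVF-BL replicate 4 (9.98 to 13.4 FPKM in the others). The effect of SCNT against sham NT on TET3 row 2 differed between the sexes by 2.37 on the log2 scale (adjusted p = 0.0318 from limma, tested after the values were seen).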

How the results depend on the processing

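DPPA3 in both female contrasts with sham NT-BLs and TET3 row 2 in both male ones kept their calls and direction under all alternatives run. The counts of member rows that follow stand, for most settings, without the share of all rows called, and show only dependence on the setting. The number of member rows called in sham NT-BLs against IVF-BLs was 1 without a filter in either sex and 4 in either sex with all 6 groups in 1 fit, where UHRF1 passed in both (adjusted p = 0.0492 in females and 0.0129 in males, limma). It was 2 in female SCNT-BLs against sham NT-BLs with only rows over 1 FPKM or with 6 groups, UHRF1 being added (adjusted p = 0.0383 and 0.0268). Without a filter the interaction of SCNT and sham NT called 0 member rows (TET3 row 2 adjusted p = 0.0505). Same-numbered embryos did not deviate together (correlations -0.239 to 0.0767). Whether the numbers mark a shared preparation cannot be told from this. With the replicate block the member count was 1 in male sham NT-BLs against IVF-BLs (DPPA3 adjusted p = 0.0634) and 1 in male SCNT-BLs against sham NT-BLs (UHRF1 adjusted p = 0.0646), PCNA was lost in male sham NT-BLs against IVF-BLs (adjusted p = 0.0511) and in female SCNT-BLs against sham NT-BLs (adjusted p = 0.0616), and calls over all rows were 20, 652, 1306 and 1060 where they had been 49, 1040, 2061 and 1706 (female and male SCNT-BLs against IVF-BLs, female sham NT-BLs against IVF-BLs, female SCNT-BLs against sham NT-BLs). Female SCNT-BLs against IVF-BLs had 75 calls with rows over 1 FPKM, 1 without a filter and 131 with 6 groups, and 1 to 57 on leaving out 1 embryo. The interactions had 147 to 311 (SCNT against IVF), 110 to 238 (sham NT against IVF) and 157 to 363 (SCNT against sham NT) on leaving out 1 embryo, where they had 295, 187 and 330.

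Leaving out 1 embryo gave 1 to 2 called member rows in female and 1 to 3 in male sham NT-BLs against IVF-BLs, 1 to 2 in both contrasts of SCNT-BLs with sham NT-BLs, and 0 to 1 in the interactions of SCNT. Over the sexes it gave 2 to 3 for SCNT-BLs against sham NT-BLs, where TET3 row 2 (-0.82, adjusted p = 0.0473) was lost in 16 of 23 fits. Sign changes touched only uncalled differences near 0. With median centring these were DPPA3 in female SCNT-BLs against IVF-BLs (1.3e-04), UHRF1 in male SCNT-BLs against IVF-BLs (0.0080) and TET2 in male sham NT-BLs against IVF-BLs (0.0053). Without female SCNT-BL replicates 5 and 6 these were DNMT1 against IVF-BLs (-0.070) and TET2 against sham NT-BLs (-0.029). Leaving out 1 embryo they were, in female SCNT-BLs against IVF-BLs, DNMT1 (-0.017 to 0.27), UHRF1 (-0.24 to 0.036) and DPPA3 (-0.26 to 0.012), and in males DNMT1 (-0.28 to 0.019) and UHRF1 (-0.19 to 0.14). In male sham NT-BLs against IVF-BLs they were DNMT3A (-0.28 to 0.29) and TET2 (-0.20 to 0.0029), in female SCNT-BLs against sham NT-BLs DNMT3A (-0.10 to 0.31), and in the interactions with IVF-BLs UHRF1 for SCNT (-0.24 to 0.087) and DNMT1 (-0.019 to 0.30) and TET3 row 1 (-0.25 to 0.26) for sham NT. The cause was not tested in any case. Depth limits low rows such as TET3 row 1 most, and it could not be expressed in reads.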
